A study of Rattus norvegicus with 6 samples.

Results

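Globin and other red blood cell genes were followed in lung RNA of TMPRSS2-knockout and wild-type rats. They were taken by symbol from the deposited gene tables, and 9 of 40995 genes carried those symbols, each once. Hba-a1 and Hba-a2 encode alpha chains of haemoglobin, and Hbb and Hbb-bs encode adult beta chains. Ahsp encodes the chaperone that holds free alpha chains, Alas2 the erythroid enzyme of the first step of haem synthesis, Slc4a1 the band 3 anion exchanger of the red cell membrane, Epb42 the membrane skeleton protein that binds band 3, and Bpgm the enzyme that makes 2,3-bisphosphoglycerate.

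The knockout (KO) lungs came from 3 rats of the crTMPRSS2 line, in which Tmprss2, encoding an epithelial transmembrane serine protease, had been edited with CRISPR/Cas9. The wild-type (WT) lungs came from 3 rats, both genotypes had a Sprague-Dawley background, and no treatment was given. The labels call the rats biological replicates and put the 6 libraries of poly-A selected RNA, read as paired reads of 150 bases, in 1 batch. The sources used here do not state sex, age, litter, the number of founders of the line or whether the lungs were flushed of blood.

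Mature red cells have no nucleus and make no new RNA, but reticulocytes, the youngest red cells in blood, still carry globin mRNA in large amounts. Lung is full of blood, so lung RNA holds reticulocyte transcripts in an amount that depends on how much blood stays in the sampled piece. Globin transcripts are also known from some non-erythroid lung cells, among them alveolar type II cells. In bulk tissue, fewer cells of a type and less RNA per cell cannot be told apart.

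Total counts were 29933359 to 30514778 reads in KO libraries and 33033732 to 36895162 reads in WT libraries. WT replicate 1 stood apart: the skeletal muscle actin Acta1 had 0.694 to 2.39 CPM (counts per 1e+06 counts, on library sizes scaled by the TMM method) in KO libraries, 5077 CPM in WT replicate 1 and 1.27 and 1.90 CPM in WT replicates 2 and 3. Summed over 8 squamous epithelial markers, CPM were 2.33 to 6.60 in KO libraries, 3298 in WT replicate 1, and 7.75 and 6.14 in WT replicates 2 and 3. The fold changes of the 9 genes, and those of other genes that this library moves, are therefore given with and without it. Tmprss2 mRNA had 46.1, 56.4 and 47.0 CPM in KO libraries, against 50.5, 62.0 and 65.7 CPM in WT libraries. The groups overlapped (log2 fold change -0.25, SE 0.14, edgeR quasi-likelihood test, Benjamini-Hochberg adjusted p = 0.508, or -0.36 and 0.0589 without WT replicate 1), and a count over the whole gene does not show whether an edited stretch is missing. The lung label fitted the transcripts: the surfactant gene Sftpc had 8325 to 8724 CPM in KO libraries and 9470 to 15408 CPM in WT libraries.

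The globin genes lie in 2 clusters. Coordinates in the deposited tables are on mRatBN7.2, where Hba-a2 and Hba-a1 sit on the minus strand at chr10:15323830-15324677 and chr10:15337265-15338121. Hbb-bs and Hbb sit on the minus strand of chromosome 1, at chr1:158218356-158219722 and chr1:158250421-158251832. Between these 2 beta genes lie Hbb-b1 and 2 genes named by identifiers, LOC100134871 and LOC120093065, which the deposited annotation describes as a minor beta globin gene and as haemoglobin subunit beta-2. Hbz lies beside the alpha genes, and Hbg1, Hbe2 and Hbe1 lie beside the beta genes.

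The promoters of these genes are shown because the 4 globin members followed nearly the same order of libraries and because some copies are nearly identical. RefSeq promoter windows on GRCr8 were found for 7 of the 9 genes, not including Slc4a1 and Ahsp. The 180 bases before the start of transcription, all on the minus strand, are chr10:15842581-15842760 for Hba-a1, chr10:15829139-15829318 for Hba-a2, chr1:167663722-167663901 for Hbb, chr1:167631631-167631810 for Hbb-bs and chr1:167643521-167643700 for Hbb-b1, whose start in the table lies inside the outer bounds of its gene. They are printed from 5′ to 3′. Capitals mark 3 kinds of letters, each searched on both strands. The GATA motif was AGATAA or TGATAA. The CACCC box was the letters of its name. The TATA-like box was TATAAA or CATAAA.
Hba-a1: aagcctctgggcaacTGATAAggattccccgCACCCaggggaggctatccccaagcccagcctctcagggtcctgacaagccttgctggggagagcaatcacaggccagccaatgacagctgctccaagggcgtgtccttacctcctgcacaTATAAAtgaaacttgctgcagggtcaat
Hba-a2: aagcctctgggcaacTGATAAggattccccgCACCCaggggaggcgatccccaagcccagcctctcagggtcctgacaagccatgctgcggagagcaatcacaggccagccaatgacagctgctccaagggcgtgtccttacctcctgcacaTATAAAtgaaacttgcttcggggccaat
Hbb: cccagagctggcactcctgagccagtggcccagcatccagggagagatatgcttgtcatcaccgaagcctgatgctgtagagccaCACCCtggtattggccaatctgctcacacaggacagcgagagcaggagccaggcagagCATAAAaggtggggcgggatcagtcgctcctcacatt
Hbb-bs: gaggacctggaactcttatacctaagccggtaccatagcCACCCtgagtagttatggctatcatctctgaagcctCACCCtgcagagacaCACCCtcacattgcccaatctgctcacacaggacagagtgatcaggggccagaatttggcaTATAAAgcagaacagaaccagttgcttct
Hbb-b1: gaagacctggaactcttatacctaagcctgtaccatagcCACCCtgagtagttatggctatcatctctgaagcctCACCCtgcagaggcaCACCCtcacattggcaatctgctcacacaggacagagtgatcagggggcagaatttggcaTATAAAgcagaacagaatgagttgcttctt
Hba-a1 and Hba-a2 both held a GATA motif 165 bases before the start, a CACCC box at 149 and TATAAA at 28, and 174 of their 180 bases were identical (96.7%). Hbb held a CACCC box at 95 and CATAAA at 37. Hbb-bs and Hbb-b1 each held 3 CACCC boxes, at 141, 105 and 90, with TATAAA at 29 and 30, and matched in 172 of 181 aligned columns, against 64.2% identity between Hbb and Hbb-bs. No motif shared bases with another. Of 33469 rat promoters in the same table, each 300 bases long, 18.9% held the GATA motif, 54.9% a CACCC box and 24.0% a TATA-like box, so the letters alone are common and a match is only a description.

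Globin transcripts made up a small and variable part of lung mRNA, and the mean level of 8 of the 9 genes was lower in KO lungs, with a spread between rats that left none of them past the test. Hba-a1 led in every library, at 957 ± 425 FPKM (fragments per kilobase and per 1e+06 fragments, as deposited) in KO lungs and 1895 ± 976 FPKM in WT lungs (SD, n = 3 each), followed by Hba-a2 at 410 ± 206 FPKM in KO lungs and 684 ± 351 FPKM in WT lungs. Hbb averaged 174 ± 75.6 FPKM in KO lungs and 341 ± 205 FPKM in WT lungs, and Hbb-bs 8.47 ± 8.43 FPKM in KO lungs and 35.6 ± 19.0 FPKM in WT lungs. Bpgm averaged 14.5 ± 0.323 FPKM in KO lungs and 18.8 ± 3.97 FPKM in WT lungs, and Alas2 3.31 ± 1.64 FPKM in KO lungs and 6.30 ± 3.04 FPKM in WT lungs. The lowest were Ahsp at 1.11 ± 0.245 FPKM in KO lungs and 2.08 ± 1.12 FPKM in WT lungs, Epb42 at 0.833 ± 0.0997 FPKM in KO lungs and 0.770 ± 0.218 FPKM in WT lungs, and Slc4a1 at 0.404 ± 0.175 FPKM in KO lungs and 0.982 ± 0.565 FPKM in WT lungs. Within each library Hba-a1 exceeded Hba-a2 and Hba-a2 exceeded Hbb, although the ranges of these neighbours overlapped over libraries of 1 genotype. Every Hbb value lay above every Hbb-bs value.

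Hba-a1 had 772, 544 and 296 CPM in KO replicates 1, 2 and 3, against 431, 1307 and 1447 CPM in WT replicates 1, 2 and 3. The highest WT libraries, replicates 2 and 3, lay above every KO library, but WT replicate 1 lay below KO replicates 1 and 2, so the groups overlapped. Its log2 fold change, KO over WT, was -0.98 (SE 0.49, edgeR quasi-likelihood, Benjamini-Hochberg adjusted p = 0.488). Hba-a2 had 345, 215 and 120 CPM in KO lungs, against 158, 443 and 530 CPM in WT lungs, with the libraries in the order seen for Hba-a1 and a fold change on the log2 scale of -0.73 (SE 0.50, edgeR quasi-likelihood, adjusted p = 0.578). Neither alpha gene passed the threshold of 0.05.

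Hbb, the most abundant beta chain transcript here, had 154, 112 and 60.3 CPM in KO lungs, against 68.8, 254 and 315 CPM in WT lungs. KO replicate 3 and WT replicate 1 were again the lowest, and the log2 fold change was -0.96 (SE 0.55, edgeR adjusted p = 0.526). Hbb-bs had 11.1, 3.37 and 1.21 CPM in KO lungs, against 9.62, 23.2 and 33.1 CPM in WT lungs. KO replicate 1 lay above WT replicate 1, and those libraries alone made the groups overlap. Hbb-bs had the most negative fold change of the 9 genes, log2 -2.07 (SE 0.78), with an unadjusted p of 0.0312 and an adjusted p of 0.401 in the edgeR fit. Without KO replicate 1 its log2 fold change was -3.26 (edgeR adjusted p = 0.629).

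**Figure D1:**
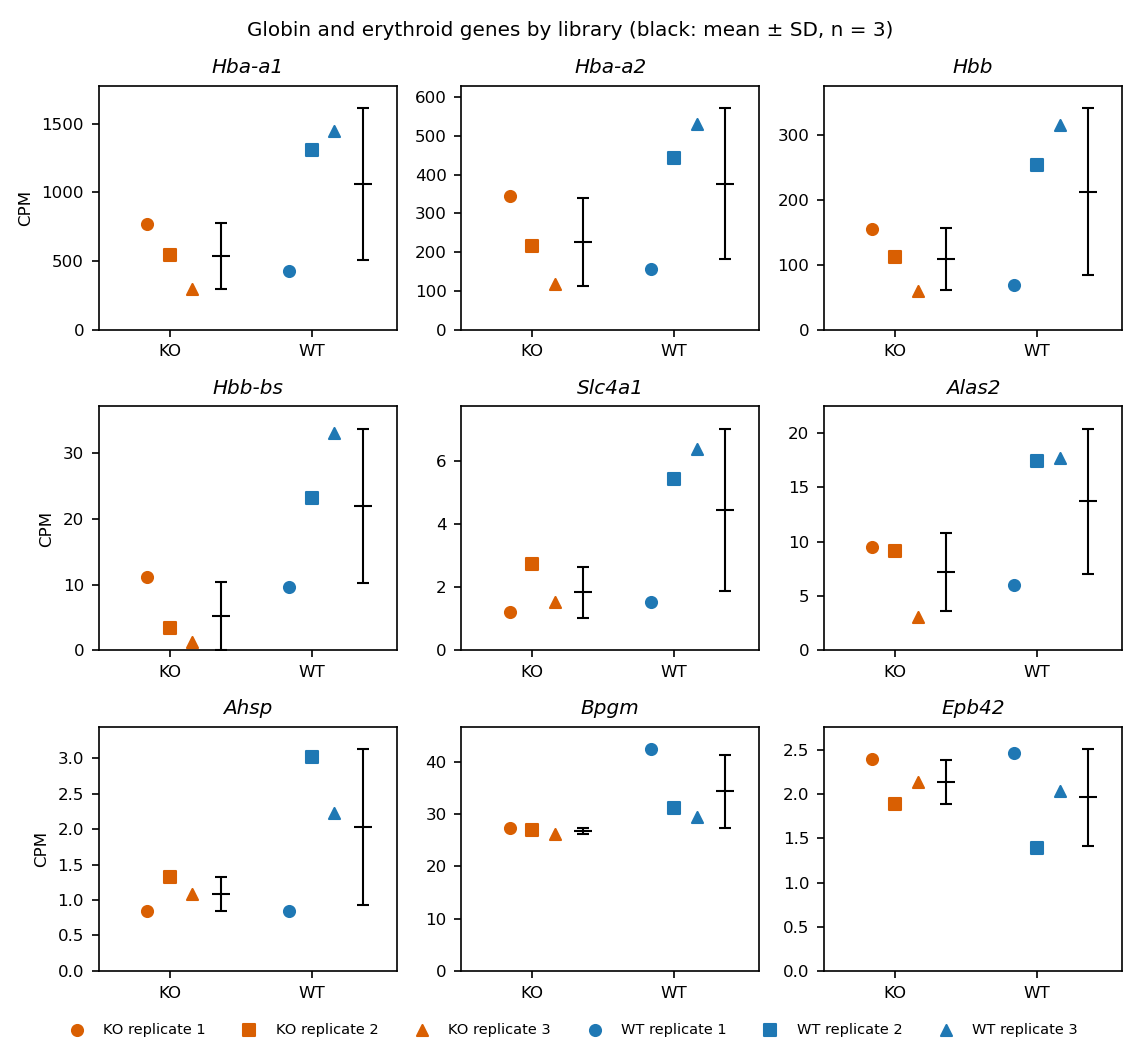
CPM (vertical axes, linear and starting at 0) of the 9 genes in each KO library (orange, left) and WT library (blue, right), with the mean ± SD of 3 libraries in black. WT replicate 1 (blue circle) lies among the KO libraries for 7 genes, from Hba-a1 to Ahsp, and above them for Bpgm and Epb42. KO lungs ranged from 26.1 to 27.2 CPM for Bpgm. For Epb42 they ranged from 1.89 to 2.40 CPM, against 2.47 CPM in WT replicate 1.

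The genes that serve haemoglobin assembly had lower counts than Hba-a1, Hba-a2 and Hbb. Alas2 had 9.49, 9.11 and 3.09 CPM in KO lungs, against 6.03, 17.4 and 17.7 CPM in WT lungs, and kept the order of libraries of Hba-a1 (log2 fold change -0.93, SE 0.53, edgeR adjusted p = 0.524). Ahsp had 0.842, 1.32 and 1.08 CPM in KO lungs, against 0.846, 3.02 and 2.23 CPM in WT lungs. Here KO replicate 1 was the lowest library, although it was the highest KO library for all 4 globin genes, and the log2 fold change was -0.91 (SE 0.48, edgeR adjusted p = 0.503). Ahsp rested on 25 to 100 reads per library.

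Slc4a1 had 1.23, 2.74 and 1.53 CPM in KO lungs, against 1.52, 5.43 and 6.38 CPM in WT lungs, or 38 to 87 reads in KO libraries and 45 to 238 reads in WT libraries. KO replicate 1 was again the lowest and WT replicates 2 and 3 the highest (log2 fold change -1.28, SE 0.55, edgeR adjusted p = 0.445). On the scale of log2(FPKM + 1), which shrinks the change of a gene this low, the difference was -0.46. Epb42, whose protein binds band 3, had 2.40, 1.89 and 2.14 CPM in KO lungs, against 2.47, 1.39 and 2.04 CPM in WT lungs. Its groups overlapped and its lowest and highest libraries were both WT (log2 fold change 0.12, SE 0.30, 95% interval -0.57 to 0.82, edgeR adjusted p = 0.855). It was the only member with a fold change above 0.

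Bpgm had another order of libraries than the globins. It had 27.2, 27.0 and 26.1 CPM in KO lungs, against 42.4, 31.2 and 29.5 CPM in WT lungs, so that WT replicate 1 was the highest library. It was the only member whose groups did not overlap, and of the 18464 tested genes 11.4% were lower in KO lungs without overlap and 22.8% had no overlap in either direction. The log2 fold change was -0.36 (SE 0.15, edgeR unadjusted p = 0.05001, adjusted p = 0.441). KO libraries differed by 1.04-fold between the highest and the lowest, and WT libraries by 1.44-fold.

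None of the 9 genes was called with all 6 libraries by edgeR at an adjusted p of 0.05, where 0.0542% of all tested genes were called in either direction and 0.0379% were called lower. At an unadjusted p of 0.05, 1 of the 9, Hbb-bs, was past the threshold, against 11.3% of all tested genes. DESeq2 and limma-voom called 0 of 9 as well, with 4 and 1 at an unadjusted p of 0.05. Over all 18464 genes, DESeq2 called 2.71%, with 2390 genes at an unadjusted p of 0.05, and limma-voom called 0.0379%, with 2084. The fit by limma-voom with sample quality weights, which gives less weight to libraries far from their group, called 7 of 9, where it called 9.08% of all genes. The fold change was below 0 for 8 of 9 genes, against 50.3% of all tested genes, with a median of -0.93 against -0.00 on the log2 scale.

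Leaving out WT replicate 1 lowered the SE of 8 of the 9 genes, all but Epb42. The log2 fold change was then -1.36 (SE 0.28, edgeR adjusted p = 0.0248) for Hba-a1, and -1.38 (SE 0.27, edgeR adjusted p = 0.0221) for Hbb. Hbb-bs stood at -2.43 (SE 0.56, edgeR adjusted p = 0.0434) and Slc4a1 at -1.68 (SE 0.31, edgeR adjusted p = 0.0167). These 4 of 9 genes fell in KO lungs under that comparison, where 2.34% of 18994 tested genes were called lower and 3.99% were called in either direction. Hba-a2 at -1.10 (edgeR adjusted p = 0.0815), Alas2 at -1.28 (edgeR adjusted p = 0.0690), Ahsp at -1.27 (edgeR adjusted p = 0.0641) and Bpgm at -0.18 (edgeR adjusted p = 0.278) did not pass. Epb42 stood at 0.32 on that scale (edgeR adjusted p = 0.662). Against WT replicates 2 and 3 alone, 8 of 9 genes had lower values in every KO library, and 17.3% of tested genes did. The library was left out because its muscle and squamous transcripts set it apart, and it was also the lowest WT library for 7 of the 9 genes. No library other than WT replicate 1 gave a call for any of the 9 genes when it was left out.

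**Figure D2:**
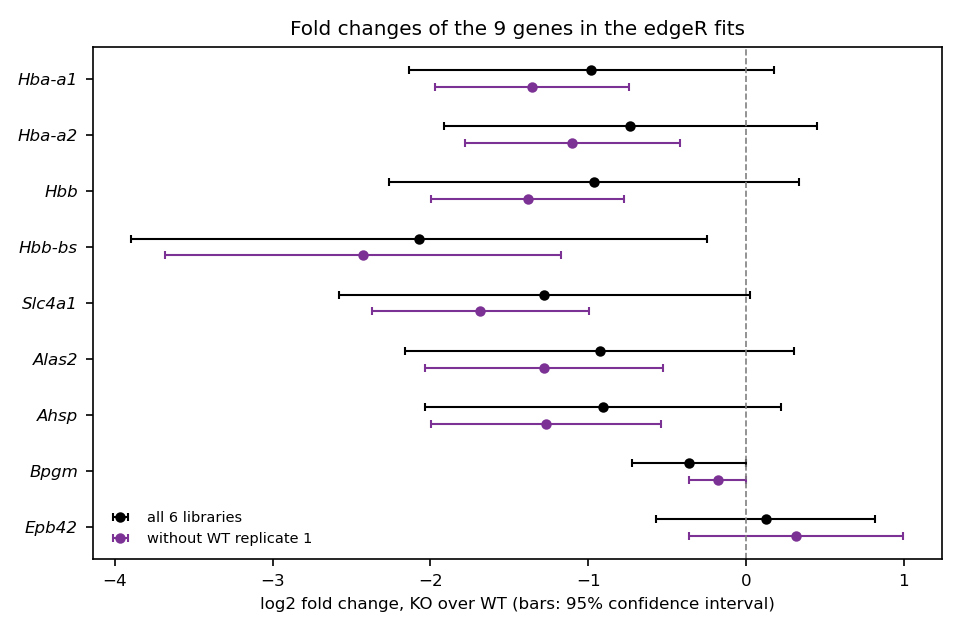
Log2 fold change, KO over WT, of each gene (horizontal axis, bars are 95% confidence intervals of the edgeR fits) with all 6 libraries (black) and without WT replicate 1 (purple). The intervals of Hba-a1, Hbb and Slc4a1 reach past 0 with all 6 libraries, while the Hba-a1 interval runs from -1.97 to -0.74 without WT replicate 1.

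The spread within each genotype was large for the globins, and smallest among the 9 genes for Bpgm. Between the highest and lowest library, Hba-a1 differed by 2.61-fold in KO lungs and 3.36-fold in WT lungs, Hbb by 2.56-fold in KO lungs and 4.58-fold in WT lungs, and Hbb-bs by 9.16-fold in KO lungs and 3.44-fold in WT lungs. The SD of log2 CPM of Hba-a1 was 0.70 in KO lungs and 0.97 in WT lungs, against medians over all tested genes of 0.12 in KO lungs and 0.29 in WT lungs. That placed it above 95.2% of tested genes in KO lungs and above 93.4% in WT lungs, while Bpgm was above 8.84% in KO lungs and 48.4% in WT lungs. Ahsp was above 79.1% in KO lungs and 92.0% in WT lungs, and Epb42 above 61.9% in KO lungs and 65.6% in WT lungs.

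Together the 9 genes took 0.137%, 0.0953% and 0.0532% of all counts in KO replicates 1, 2 and 3, against 0.0629%, 0.209% and 0.241% in WT replicates 1, 2 and 3. Exact (Clopper-Pearson) 95% intervals were narrow, for example 0.135% to 0.138% in KO replicate 1 and 0.0620% to 0.0637% in WT replicate 1, but they cover counting error alone, and the gap between rats of 1 genotype was many times wider. The intervals treat each read as independent, and independent fragments are fewer, so they understate the counting error as well. Summed CPM were 917 ± 407 in KO lungs and 1729 ± 886 in WT lungs (SD, n = 3 each), a log2 ratio of -0.91. The difference between the means was smaller than the SD of the WT lungs, and the summed level gets no test. Without WT replicate 1 the ratio was -1.28.

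The 4 globin genes and Alas2 shared most of the order of libraries. From low to high, KO replicate 3, WT replicate 1, KO replicate 2, KO replicate 1, WT replicate 2 and WT replicate 3 followed each other for Hba-a1, Hba-a2, Hbb and Alas2, and Hbb-bs differed only in having KO replicate 2 below WT replicate 1. Relative to Hba-a1 in the same library, Alas2 counts stayed between 1.04% and 1.67% in KO lungs and between 1.23% and 1.40% in WT lungs. Summed FPKM of the beta genes were 17.5% to 18.6% of those of the alpha genes in KO lungs and 15.6% to 20.9% in WT lungs. In contrast, Bpgm counts were 3.53% to 8.81% of Hba-a1 in KO lungs and 2.04% to 9.83% in WT lungs. As a description over 6 libraries, the Pearson r with the mean log2 CPM of the 4 globin genes was 0.96 for Alas2, 0.74 for Slc4a1, 0.68 for Ahsp, 0.08 for Bpgm and -0.42 for Epb42.

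Not every copy within a cluster kept its proportion to the leading copy. Between the highest and lowest of the 6 libraries, Hbb-bs relative to Hbb differed by 6.96-fold, and Hbb-b1 relative to Hbb by 1.11-fold. Hbb-bs reads were 7.19%, 3.01% and 2.01% of Hbb reads in KO replicates 1, 2 and 3, against 13.98%, 9.13% and 10.5% in WT replicates 1, 2 and 3. Here WT replicate 1 was the highest library, and the groups did not overlap, with means of 4.07 ± 2.75% in KO lungs and 11.2 ± 2.50% in WT lungs (SD, n = 3 each). Hbb-b1, whose promoter is close to that of Hbb-bs, stayed at 35.99% to 38.3% of Hbb in KO lungs and 35.4% to 39.2% in WT lungs. A two-sided exact permutation test over the 20 ways of dividing the libraries 3 against 3 gave p = 0.1 for the Hbb-bs ratio, the smallest it can give, and p = 1 for the Hbb-b1 ratio. The ratio was chosen after its values were seen. Leaving out any 1 library gave a log2 ratio of -2.16 to -1.24, against -1.65 with all 6.

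In the alpha cluster, Hba-a2 reads were 44.7%, 39.5% and 40.4% of Hba-a1 reads in KO lungs, against 36.6%, 33.9% and 36.6% in WT lungs. Every KO library was above every WT library, by a small margin, and the same exact permutation test gave its smallest value, p = 0.1. Hba-a3, another alpha gene copy, was at 1.40% to 1.62% of Hba-a1 in KO lungs and 1.24% to 1.49% in WT lungs, and overlapped. The ratio of Hba-a2 to Hba-a1 was likewise chosen after its values were seen. Over the 21 ratios tested in this way, the smallest Benjamini-Hochberg adjusted value of the exact permutation p was 0.42. How reads that match several copies were assigned is not given in the sources used here, so the values of single copies, Hbb-bs above all, are uncertain.

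**Figure D3:**
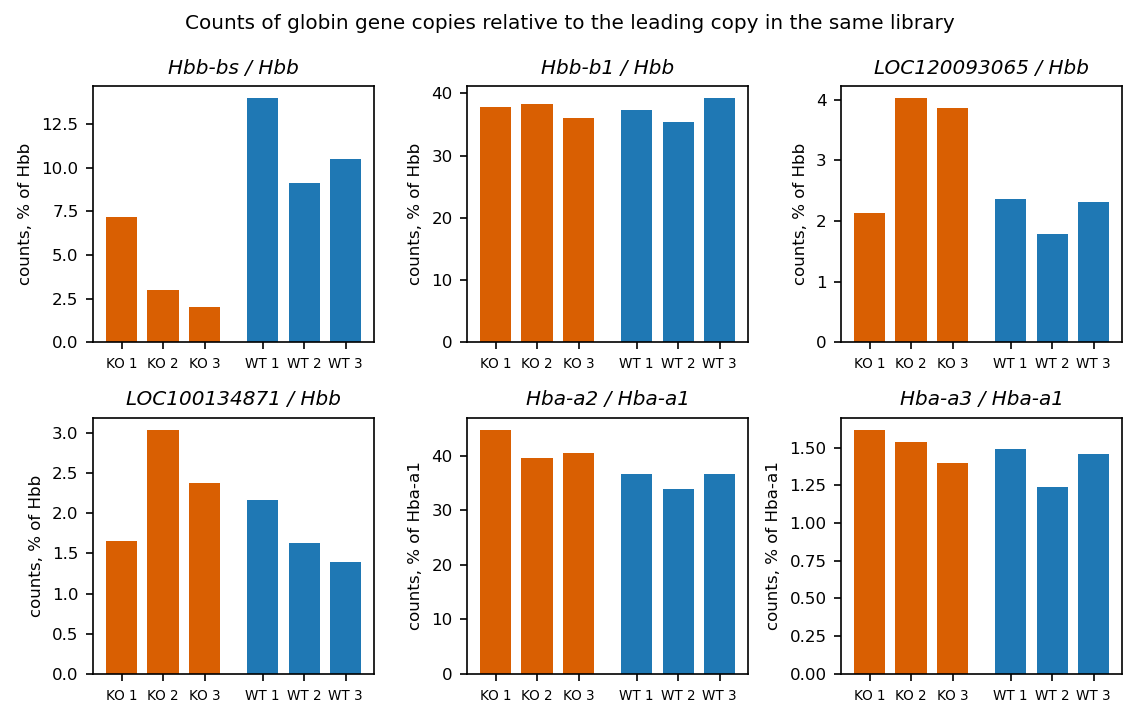
Reads of each globin copy as a percent of the leading copy of its cluster (vertical axes, starting at 0) in the 3 KO libraries (orange) and the 3 WT libraries (blue). The bars of Hbb-bs over Hbb run from 2.01% to 7.19% in KO lungs and from 9.13% to 13.98% in WT lungs, while those of Hbb-b1 over Hbb are nearly level.

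Summing the copies of a cluster removes the split of reads between them, although reads left uncounted for matching several places would stay so. The 3 alpha genes together had 1130, 768 and 420 CPM in KO lungs, against 595, 1766 and 1998 CPM in WT lungs (log2 fold change -0.91, SE 0.50, edgeR adjusted p = 0.510). The 5 beta genes together had 230.0, 166 and 87.0 CPM in KO lungs, against 107, 376 and 484 CPM in WT lungs (edgeR adjusted p = 0.517). The groups overlapped through WT replicate 1 in both sums. Without that library both sums fell in KO lungs, by 1.28 on the log2 scale for alpha (edgeR adjusted p = 0.0347) and by 1.41 for beta (edgeR adjusted p = 0.0232). This summing was chosen after the data were seen.

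The other globin genes were few. Of 17 symbols listed, 8 were in the tables and 3 passed the filter on low counts. None was called with all 6 libraries (0 at an unadjusted edgeR p of 0.05, 0 by DESeq2), and their median log2 fold change was -0.96. The beta genes named by identifiers, LOC100134871 and LOC120093065, were tested but were not on the list. Their log2 fold changes were weaker, -0.44 and -0.41 (edgeR adjusted p = 0.698 and 0.736). Without WT replicate 1 these were -0.78 and -0.81 (edgeR adjusted p = 0.231 and 0.177). Hbb-b1 had 58.5, 43.0 and 21.7 CPM in KO lungs, against 25.7, 89.8 and 123.6 CPM in WT lungs. Its order of libraries was that of Hbb, and it fell in KO lungs without WT replicate 1 (log2 fold change -1.38, edgeR adjusted p = 0.0299). Hba-a3 had 12.5, 8.35 and 4.15 CPM in KO lungs, against 6.43, 16.2 and 21.1 CPM in WT lungs. Hbq1b, a theta globin gene at the edge of detection, had 15, 4 and 1 reads in KO lungs, against 18, 22 and 24 reads in WT lungs (log2 fold change -1.56, SE 0.77, edgeR adjusted p = 0.485). The embryonic genes Hbz, Hbe1 and Hbe2 and the gene Hbg1 had no read in any library.

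Genes of the red cell membrane and skeleton other than the members gave mixed directions. Of 14 tested genes on that list, 0 were called by edgeR with all 6 libraries (2 at an unadjusted p of 0.05, 0 by DESeq2), and 9 had fold changes below 0, with a median of -0.13 on the log2 scale. Without WT replicate 1 the direction turned, with 4 genes below 0, 10 above and a median of 0.15. Ank1, encoding the ankyrin that ties band 3 to spectrin, had 23.7, 21.6 and 22.2 CPM in KO lungs, against 50.8, 29.4 and 27.6 CPM in WT lungs (edgeR adjusted p = 0.376), with a log2 fold change of -0.67, or -0.34 without WT replicate 1. Sptb, encoding beta spectrin, had 7.15 to 11.99 CPM in KO lungs, against 113, 5.34 and 7.99 CPM in WT lungs, so that WT replicate 1, the library with high Acta1, made the difference (log2 fold change -2.15, or 0.51 without it). Rhd, a blood group antigen gene, had 0.842, 1.83 and 1.66 CPM in KO lungs, against 0.745, 1.09 and 0.590 CPM in WT lungs.

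For the enzymes of haem synthesis after Alas2 and the iron supply genes, fold changes were small except for Steap3. Of 15 tested genes, 0 were called (1 at an unadjusted edgeR p of 0.05, 0 by DESeq2), and the median log2 fold change was -0.13, or -0.02 without WT replicate 1. Steap3, an iron reductase gene, had 3.43, 3.85 and 3.38 CPM in KO lungs, against 18.0, 5.31 and 4.99 CPM in WT lungs (log2 fold change -1.40, SE 0.51, edgeR adjusted p = 0.385), and again WT replicate 1 was far the highest (-0.53 without it). Slc25a37, the mitoferrin gene, had 43.0 ± 3.03 CPM in KO lungs and 35.3 ± 6.52 CPM in WT lungs (SD, n = 3 each). Abcb6 and Slc11a2, a porphyrin transporter gene and an iron transporter gene, had log2 fold changes of -0.22 and -0.20, or -0.06 and -0.04 without WT replicate 1.

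Among 13 tested genes of erythroid transcription and signalling, 0 were called (1 at an unadjusted edgeR p of 0.05, 0 by DESeq2), with a median of -0.02. Nfe2, a factor of the erythroid and megakaryocyte lines, had 7.35, 6.56 and 7.49 CPM in KO lungs, against 5.08, 4.95 and 4.799 CPM in WT lungs. Its groups did not overlap (log2 fold change 0.53, SE 0.17, edgeR adjusted p = 0.338), and its direction was opposite to that of the globins. Gata1, the leading erythroid transcription factor gene, had 6, 6 and 12 reads in KO lungs, against 16, 14 and 26 reads in WT lungs, without overlap (log2 fold change -1.11, SE 0.50, edgeR adjusted p = 0.450). Lmo2 and Bcl11a had log2 fold changes of 0.20 and 0.65, and neither passed.

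Of 12 tested genes of reticulocyte maturation and red cell enzymes, 0 were called (1 at an unadjusted edgeR p of 0.05, 0 by DESeq2), with a median of -0.12. Blvrb, encoding biliverdin reductase B, had 22.5, 20.6 and 18.6 CPM in KO lungs, against 37.5, 25.1 and 24.8 CPM in WT lungs (log2 fold change -0.50, SE 0.19, edgeR adjusted p = 0.4005, or -0.28 without WT replicate 1). Aldoa, the glycolytic aldolase gene, had 440 to 477 CPM in KO lungs, against 1841, 505 and 451 CPM in WT lungs, a difference that WT replicate 1 made. Ube2o and Prdx2 had log2 fold changes of -0.20 and -0.34, or -0.10 and -0.02 without WT replicate 1, which had 153 CPM of Prdx2, against 86.3 and 88.0 CPM in the other WT lungs.

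Genes that clear haemoglobin and break down haem gave the smallest p-values of the lists. Of 10 tested genes, edgeR called 0 with all 6 libraries (3 at an unadjusted p of 0.05), while DESeq2 called 1, and 8 had fold changes below 0, with a median of -0.20. Hmox1, encoding the inducible haem oxygenase, had 28.9, 30.3 and 28.3 CPM in KO lungs, against 52.7, 51.6 and 39.8 CPM in WT lungs. The groups did not overlap, WT replicate 1 lay with the other WT libraries, and the log2 fold change was -0.72 (SE 0.13, edgeR adjusted p = 0.160). Without WT replicate 1, Hmox1 fell by 0.65 on the log2 scale (edgeR adjusted p = 0.0103). Ftl1, the ferritin light chain gene, had 662, 663 and 625 CPM in KO lungs, against 1121, 877 and 793 CPM in WT lungs (log2 fold change -0.52, SE 0.14, edgeR adjusted p = 0.279). It fell by 0.36 without WT replicate 1 (edgeR adjusted p = 0.0106). Slc48a1, a haem transporter gene, and Cd163, the macrophage receptor for haemoglobin bound to haptoglobin, had log2 fold changes of -0.38 and -0.41 and did not pass. Without WT replicate 1 they stood at -0.21 and -0.58.

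**Figure D4:**
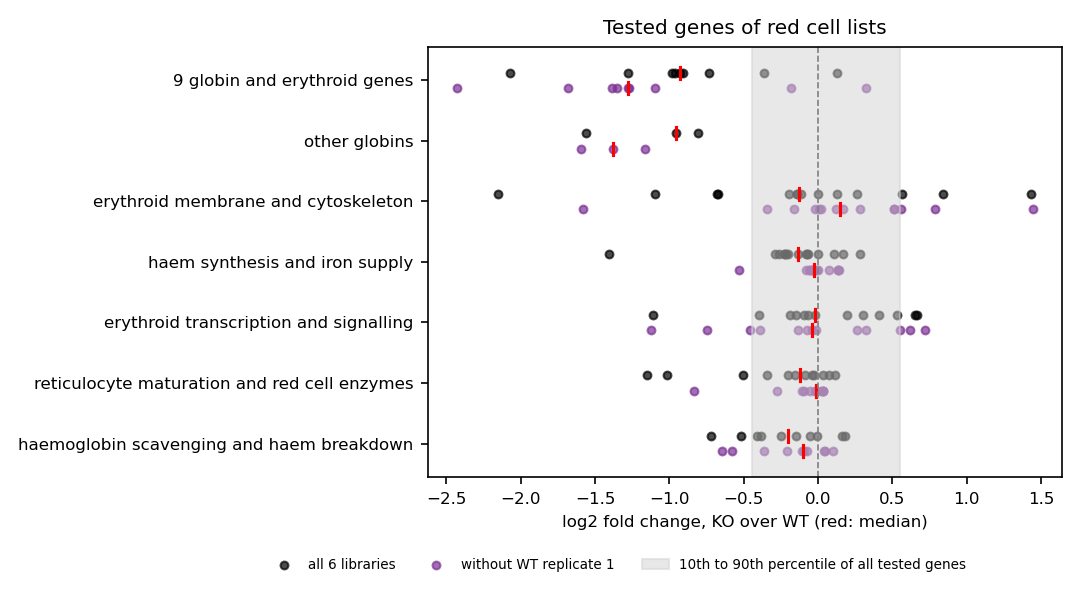
Log2 fold change, KO over WT (horizontal axis), of the tested genes of the 9 members and of 6 lists of related genes, with all 6 libraries (black) and without WT replicate 1 (purple). Red bars are medians and the grey band spans the 10th to the 90th percentile of all tested genes, -0.44 to 0.55. The medians of the members and of the other globins lie left of the band, at -0.93 and -0.96, and those of the other 5 lists lie inside it. LOC100134871 and LOC120093065 are not among the other globins shown.

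Markers of other blood cells had other orders of libraries than the globins. Summed over 12 platelet and megakaryocyte markers, CPM were 46.6, 46.1 and 46.3 in KO lungs, against 72.0, 69.4 and 56.6 in WT lungs. Itgb3, an integrin gene that other cells also express, gave 24.1, 22.8 and 27.0 CPM of the KO sums. Pf4, the platelet factor 4 gene, had 4.63, 3.405 and 2.81 CPM in KO lungs, against 9.18, 6.88 and 5.15 CPM in WT lungs, and Itga2b 6.44, 5.26 and 4.82 CPM in KO lungs, against 14.8, 12.003 and 6.78 CPM in WT lungs, so both had KO replicate 1 as the highest and KO replicate 3 as the lowest KO library, as the globins did. Ppbp kept this order of KO libraries, at 3, 2 and 0 reads. Gp5 was highest in KO replicate 1 as well, with 0.518, 0.284 and 0.287 CPM in KO lungs. Other platelet markers differed. In KO lungs Gp9 had 0.194, 0.378 and 0.670 CPM and Clec1b 1.78, 1.89 and 1.91 CPM, the reverse of that order. Among KO libraries, Itgb3 was highest in replicate 3, and Tubb1, Treml1, Gp6 and Gp1ba were highest in replicate 2. All 10 tested platelet genes had fold changes below 0, 5 of them at an unadjusted edgeR p of 0.05 and 0 called, and without WT replicate 1 Gp5, Tubb1 and Treml1 fell in KO lungs (log2 fold changes -2.18, -1.84 and -2.10, edgeR adjusted p = 0.0284, 0.0113 and 0.0120). The summed globin CPM were 1283, 875 and 477 in KO lungs, against 667, 2026 and 2325 in WT lungs, and WT replicate 1 was the highest for the summed platelet markers and the lowest WT library for globins. For Gp6, Treml1 and Clec1b, though, WT replicate 1 was the lowest WT library. Gp1bb, a defining platelet gene, was at 0 in every library. Neutrophil markers (12 genes) summed to 84.8, 109.7 and 102.8 CPM in KO lungs, against 48.4, 99.1 and 68.9 CPM in WT lungs. Fcnb alone gave 29.4, 35.2 and 35.7 CPM of the neutrophil sums in KO lungs, against 29.9, 21.4 and 12.2 CPM in WT lungs. WT replicate 1 was the lowest WT library for S100a8, S100a9, Csf3r, Cxcr2, Mmp8, Mmp9, Ngp, Camp and Retnlg, as for the globins. For Mpo and Elane it was WT replicate 2. Monocyte markers (9 genes) summed to 1602, 1380 and 1382 CPM in KO lungs, against 2166, 1784 and 1555 CPM in WT lungs. Fn1 alone gave 1127, 877 and 898 CPM of the monocyte sums in KO lungs, against 1470, 1252 and 1096 CPM in WT lungs. Of the 9 monocyte genes, 7 had fold changes below 0, and Ccr2 and Cx3cr1 lay above 0. Summed NK cell markers were 158 to 161 CPM in KO lungs, against 17.0, 83.8 and 85.5 CPM in WT lungs, and B cell markers were 123 to 153 CPM in KO lungs, against 46.4, 94.1 and 76.4 CPM in WT lungs. T cell markers were 184 to 213 CPM in KO lungs and 148 to 159 CPM in WT lungs. Cd4 alone gave 100.1, 96.5 and 100.3 CPM of the T cell sums in KO lungs, against 119, 94.1 and 83.6 CPM in WT lungs. WT replicate 1 was the highest library for Cd4 but the lowest for every other T cell marker.

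The marker sums of the lung's own cells also moved with WT replicate 1. Alveolar epithelial markers (11 genes) summed to 19595 to 21097 CPM in KO lungs, against 35561, 24146 and 22882 CPM in WT lungs. Sftpc, Sftpa1 and Sftpb gave 15408, 8265 and 5415 CPM of the sum in WT replicate 1. That library was the lowest WT library for Lamp3, Hopx and Rtkn2, and the highest library for the other alveolar markers. Rtkn2 had 292 to 308 CPM in KO lungs, against 181, 257 and 277 CPM in WT lungs. Endothelial markers (8 of 9 found) summed to 5084 to 5342 CPM in KO lungs, against 9525, 5698 and 5321 CPM in WT lungs. Skeletal and cardiac muscle markers (11 genes) summed to 140, 257 and 612 CPM in KO lungs, against 9751, 138 and 228 CPM in WT lungs, which in KO lungs was the reverse of the order of the globins. The sum mixes genes that differed. Myh6, a cardiac myosin gene, had 50.9, 106 and 250 CPM in KO lungs, against 9.85, 42.1 and 83.1 CPM in WT lungs. WT replicate 1 was thus the lowest library for Myh6 but the highest for Acta1. The part of any of these cell types, or of the amount of blood in the tissue, in the globin levels was not tested.

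**Figure D5:**
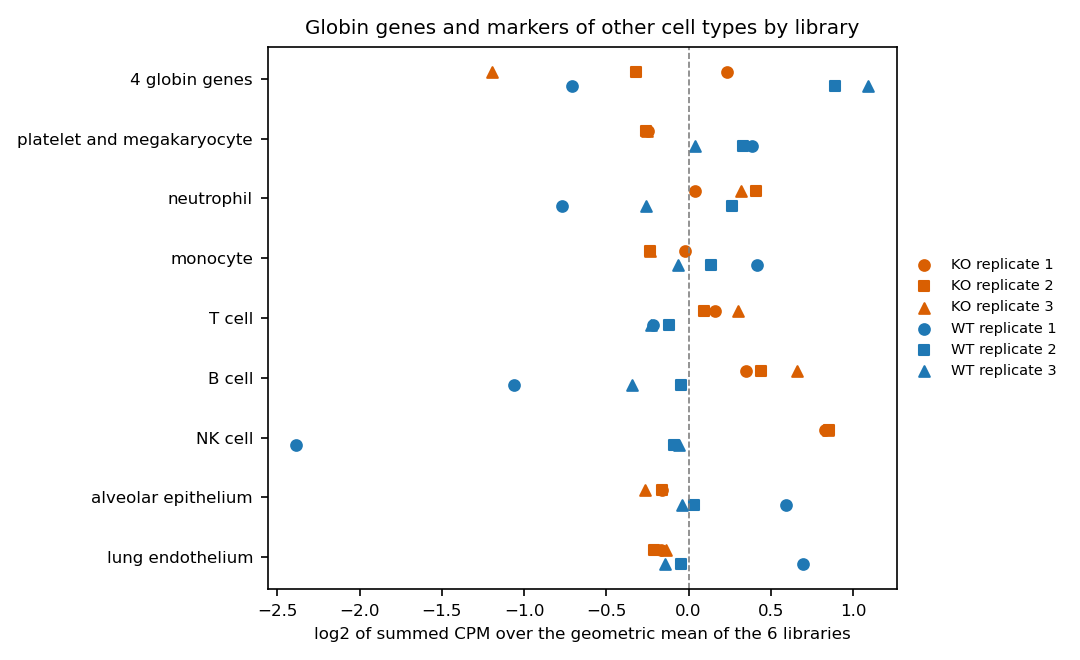
Summed CPM of the 4 globin genes and of marker lists of other cell types in each library, as log2 of the sum over the geometric mean of the 6 libraries (horizontal axis), KO in orange above WT in blue. KO libraries spread from 477 to 1283 CPM for the globins and from 46.1 to 46.6 CPM for the summed platelet markers, of which Itgb3 is the largest part.

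Genes outside these lists whose log2 CPM was most like the mean of the 4 globin genes over the 6 libraries were found among 13719 genes with at least 1 CPM on average. The Pearson r was 0.997 for Hacd1, a fatty acid elongation gene, and 0.994 for Garnl3. Hacd1 had 11.6, 9.46 and 7.94 CPM in KO lungs, against 9.55, 13.03 and 13.5 CPM in WT lungs, a far narrower range than that of the globins. Ctso, Ppfibp2, Chsy3, Dpf1, Nit2, Mrpl39, Pctp and Dnajc1 followed, with r of 0.969 to 0.988. The least like were Eef2k and Slc9a8, both at -0.975, and Mdga1 at -0.970. Of the 13719 genes, 79 had r above 0.9 and 49 had r below -0.9, and none of the genes named here passed the edgeR threshold between genotypes.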

How the data were processed

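Lung mRNA of 3 KO and 3 WT rats was analysed from gene tables. The submitters' processing notes name HISAT2 2.2.1, featureCounts 2.0.6, StringTie 2.2.3, DESeq2 1.42.0, CASAVA and the genome mRatBN7.2, with no roles. The sources used here do not state settings, strand handling or the treatment of reads matching several places. Raw counts per gene were deposited by the authors. They also deposited FPKM values, whose library sizes were 0.868 to 1.05 times the total count. In the authors' deposited table of called genes, which holds log2 values of fold change, p-values and a scaled signal per library for 192 genes, 0 of the 9 members appear. It was not used further, and 12 per-sample columns were not used. Genes with an even count from 2 to 10 numbered 3171 to 3355 per library and those with an odd count from 1 to 9 numbered 1641 to 1938, a pattern that arises when both mates are counted, so counts are given as reads and independent fragments are fewer.

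Counts were analysed with edgeR 4.0.16 in R 4.3.3: TMM scaling, filterByExpr (minimum count 10, minimum total 15), glmQLFit and glmQLFTest on genotype alone, with p-values adjusted by Benjamini-Hochberg over 18464 tested genes at a threshold of 0.05. All 9 members passed the filter. Each SE is the fold change on the log2 scale over the root of the F statistic. Lists were described by counts and medians, with no set test. The members and lists were chosen with earlier results of these data known. Named genes were every member, in each of 6 lists up to 4 tested genes with the smallest p (1 of them is not reported here), and the 10 most and 3 least like genes by Pearson r of log2 CPM (prior count 2) with the mean of the 4 globin members. Acta1, Sftpc, the platelet genes and the genes with no or few reads were named after their values were seen. On simulated counts (18145 genes), 50% of 2-fold and 97% of 4-fold changes were recovered with all 6 libraries, and 5.77% of calls were unchanged genes. Over 18607 genes without WT replicate 1 these were 91%, 100% and 8.17%. Recovery at the read counts and the spread of the 9 members was not tested. Alternatives used DESeq2 1.42.0, limma 3.58.1, other scalings and filters, a replicate block and leaving out each library. No pair of libraries had counts that agreed within sampling noise. The edgeR p-values set the difference between genotypes against the spread between rats of the same genotype, with 3 rats in each. Promoters came from RefSeq on GRCr8.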

Additional observations from a re-analysis of the deposited data

How the results depend on the processing

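With all 6 libraries edgeR called 10 genes in all, 0 of the 9 members and 0 in each of the 6 lists. DESeq2 called 501 genes, 0 members and 1 gene of haemoglobin scavenging. limma-voom with sample quality weights called 1676 genes, 7 members, 2 other globins, 1 membrane gene, 2 transcription genes and 4 scavenging genes. Leaving out each library in turn gave 1 to 758 genes, 0 to 4 members, 0 to 1 other globins and 0 to 2 scavenging genes, and the highest value of each came without WT replicate 1. Epb42 had a log2 fold change of -0.073 without WT replicate 2, the lowest as libraries were left out, and 0.32 without WT replicate 1, the highest, against 0.12 with all 6. The other 8 members kept a fold change below 0 under every alternative run. The log2 ratio of summed member CPM, -0.91, ranged from -1.28 to -0.61 as libraries were left out. The cause of these differences was not tested, and each leave-one-out fit also holds fewer samples. The replicate block gave 2 genes and 0 members. Deviations of same-numbered KO and WT libraries correlated at -0.08, 0.03 and -0.08. These values gave no sign that the numbers pair the rats, but they cannot exclude it. Precision was limited by 3 rats per genotype and, for Ahsp, Slc4a1 and Epb42, by counts of 25 to 238 reads.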

Other observations

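Several red cell genes were near the limit of detection in lung and were left out of the tests by the filter on low counts. Pklr, encoding the red cell and liver pyruvate kinase, had 0 reads in every KO library, against 0, 0 and 4 reads in WT libraries. Car1, the red cell carbonic anhydrase gene, had 2, 0 and 8 reads in KO libraries, against 6, 6 and 2 reads in WT libraries. Rhag, encoding the Rh-associated glycoprotein, had 0, 2 and 6 reads in KO libraries, against 0, 2 and 4 reads in WT libraries. Kel, the Kell antigen gene, had 4, 3 and 6 reads in KO libraries, against 2, 17 and 4 reads in WT libraries. Trim58, a ubiquitin ligase gene of late erythroid cells, had 0, 2 and 10 reads in KO libraries, against 2, 4 and 8 reads in WT libraries. The theta globin gene Hbq1 had 2, 12 and 0 reads in KO libraries, against 10, 3 and 8 reads in WT libraries. The groups overlapped for each of these 6 genes.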
